A study of Mus musculus with 8 samples.

Results

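The cytochrome P450 family 4 genes of the mouse liver were examined through 8 members picked by symbol, of 17810 genes listed in the deposited table. They are Cyp4a10, Cyp4a14, Cyp4a31 and Cyp4a32 of the 4A subfamily, Cyp4f13, Cyp4f14 and Cyp4f15 of the 4F subfamily, and Cyp4v3. The table holds RNA-Seq of whole livers from 4 WT and 4 HKO male mice, with 1 library per liver, and the comparison asks which liver genes differ when hepatocytes lack miR-33 during steatosis. WT and HKO mice were littermates that received a CD-HFD, a choline-deficient high-fat diet that causes fatty liver, for 3 months from 8 weeks of age, so that all 8 were 5 months old. HKO mice carry miR-33 alleles flanked by loxP sites together with Cre recombinase under the albumin promoter, which is active in hepatocytes. Whether miR-33 was also lost from other liver cells was not tested. All mice of both genotypes had the same diet, and no liver of chow-fed mice entered the comparison.

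Enzymes of this family place a hydroxyl group on the terminal, or omega, carbon of a fatty acid. Alcohol and aldehyde dehydrogenases then turn the product into a dicarboxylic acid, which is shortened in peroxisomes. The Cyp4a enzymes act mainly on medium and long chains, and some of them on arachidonic acid, and Cyp4a10 and Cyp4a14 are classical genes induced by the fatty acid receptor PPAR-alpha in rodent liver. Cyp4f enzymes are best known for omega-hydroxylation of leukotriene B4 and other eicosanoids, which ends their signalling. Cyp4v3 is the mouse counterpart of human CYP4V2, a fatty acid hydroxylase of the endoplasmic reticulum whose loss causes a crystalline retinal dystrophy.

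The members lie on 3 chromosomes of GRCm38, in coordinates of the deposited table. Those of the 4A subfamily form a cluster on chromosome 4, with Cyp4a14 at chr4:115486200-115496142 on the minus strand, and Cyp4a10 at chr4:115518287-115533650, Cyp4a31 at chr4:115563649-115579016 and Cyp4a32 at chr4:115600938-115622367 on the plus strand. On chromosome 17 lie Cyp4f15 at chr17:32685631-32703353 on the plus strand, and Cyp4f14 at chr17:32905070-32917357 and Cyp4f13 at chr17:32924688-32947362 on the minus strand. Cyp4v3 is the only member on chromosome 8, at chr8:45305801-45333164 on the minus strand.

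All P450 enzymes hold their heme iron through a cysteine in a conserved loop near the end of the protein, and the coding sequence of that loop shows how close the members are to each other. The 30 bases around this cysteine are printed from the GENCODE M21 transcripts on GRCm38, 5' to 3' on the coding strand, with the cysteine codon in capitals. Every window crosses an exon junction, so each interval includes an intron.
Cyp4a10 (chr4:115529502-115532543, plus strand): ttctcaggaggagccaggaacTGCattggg
Cyp4a31 (chr4:115574950-115577948, plus strand): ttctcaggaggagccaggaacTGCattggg
Cyp4a32 (chr4:115614880-115621446, plus strand): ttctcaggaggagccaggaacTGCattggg
Cyp4a14 (chr4:115487299-115489805, minus strand): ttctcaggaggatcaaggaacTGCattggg
Cyp4f13 (chr17:32924942-32925340, minus strand): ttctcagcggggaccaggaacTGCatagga
Cyp4f14 (chr17:32905666-32906065, minus strand): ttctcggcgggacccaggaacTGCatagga
Cyp4f15 (chr17:32702398-32702801, plus strand): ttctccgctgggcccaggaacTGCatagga
Cyp4v3 (chr8:45307107-45308407, minus strand): ttttctgctggacctcgaaacTGTattggt

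The windows of Cyp4a10, Cyp4a31 and Cyp4a32 were identical, Cyp4a14 shared 28 of 30 bases with them, and any pair of the Cyp4f members shared 27. Cyp4v3 shared 19 to 21 bases with the others. Over the whole coding sequence Cyp4a10 was 97.2% identical to Cyp4a32 and 96.6% to Cyp4a31, but 77.6% to Cyp4a14, and Cyp4f14 was 82.2% identical to Cyp4f15. This matters for the counts, because reads that match several genes were divided among them by estimation. Of all stretches of 75 bases in its longest transcript, Cyp4a32 shared 30.4%, Cyp4a10 19.1% and Cyp4a31 13.9% with other genes, mostly with each other. Cyp4a14 and Cyp4f13 shared 0%, Cyp4f14 0.186%, Cyp4f15 0.191%, and Cyp4v3 6.4%, all of the last with Gm45753. The labels leave the read length uncertain, and at 45 bases the shares were higher, with 51.8% for Cyp4a32, 33.6% for Cyp4a10 and 24.1% for Cyp4a31. At that length they were 0.449% for Cyp4a14, 3.57% for Cyp4f13, 3.45% for Cyp4f14, 3.25% for Cyp4f15 and 7.15% for Cyp4v3. The division of reads among Cyp4a10, Cyp4a31 and Cyp4a32 is therefore uncertain, while Cyp4a14 and the Cyp4f members could be told apart from their paralogs over most of their length at either read length.

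The libraries held 12174339 to 18735785 estimated counts. At these depths 3 counts correspond to 0.149 to 0.255 CPM (the count relative to the TMM-scaled library total), a floor that covers counting error only. Of the 12395 genes with enough counts, 624 passed an adjusted p under 0.05 with edgeR's quasi-likelihood test and Benjamini-Hochberg adjustment, 206 higher and 418 lower in HKO livers. With scaling by total count alone the numbers were 119 and 621. Mir33 itself was not analysed here, so genotypes rest on the labels. The column names number the HKO libraries ahead of the WT libraries, so order and genotype cannot be told apart. Albumin (Alb), which defines hepatocytes, stood at 74932 ± 14811 CPM in WT against 73523 ± 21139 CPM in HKO livers (SD, n = 4 each).

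On average the 4A members were lower, and the 4F members and Cyp4v3 higher, in HKO than in WT livers. All 8 members passed the expression filter, 4 with a positive and 4 with a negative log2 fold change of HKO against WT (log2FC), and their median was -0.21 against 0.01 over all genes tested. Cyp4f14 and Cyp4f15 rose, that is 2 of 8 members were called. Of all tested genes 5.03% were called in either direction and 1.66% as higher. The members and the lists below were chosen with earlier results of these data known, so such contrasts are not independent of the choice. Among the lower members 0 of 4 were called by edgeR, against 3.37% of tested genes called as lower, and 3 of them had an unadjusted p under 0.05, as had 1329 lower genes of the 12395 tested. DESeq2 called 2 of the lower members and limma-voom 0. In either direction DESeq2 called 5 of the 8, where it called 7.18% of its genes. In CPM the 4 HKO livers did not overlap the 4 WT livers in 5 of 8 members, against 12.6% of tested genes. They lay above in 3 members and below in 2, where the shares of all tested genes were 5.36% and 7.21%. In whole-liver RNA, fewer cells of a type and less RNA per cell cannot be told apart, and this holds for every value given here.

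**Figure D1:**
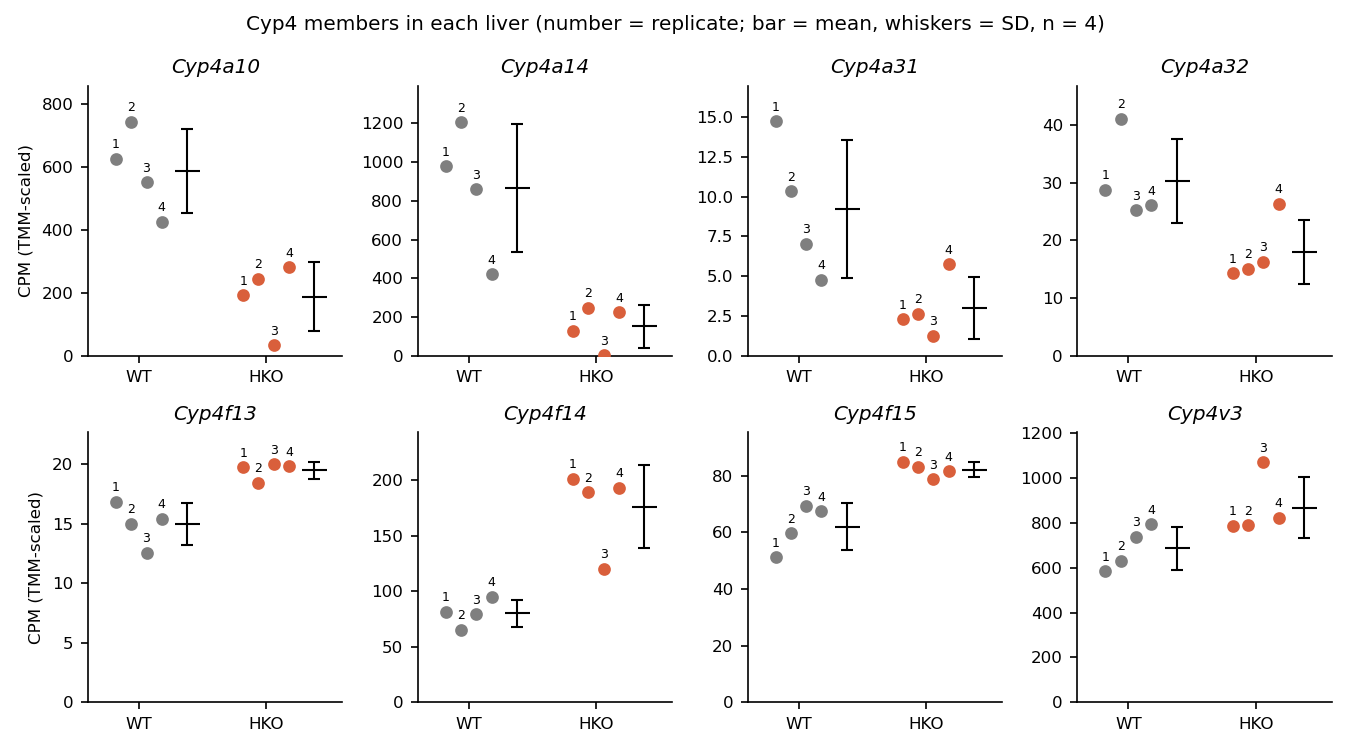
CPM of each of the 8 members (vertical axes from 0, each panel with its own range) in the 4 WT (grey) and 4 HKO (orange) livers, numbered by replicate, with the mean and SD beside each group. Cyp4a10 and Cyp4a14 lie lower in all HKO livers and lowest in HKO replicate 3, while Cyp4f13, Cyp4f14 and Cyp4f15 lie higher in all HKO livers.

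Levels of different genes were compared per kilobase of the longest annotated transcript. For Cyp4a32 that is its coding sequence alone, 1530 bases against 2109 for the whole transcript of Cyp4a10. Its level per kilobase and its rank may therefore be too high. In WT livers Cyp4a14 stood highest with 348 ± 132 CPM per kilobase, then Cyp4a10 with 279 ± 63.3 and Cyp4v3 with 180.3 ± 25.1 (SD, n = 4 livers for these and the following levels). Far below came Cyp4f14 with 36.1 ± 5.44, Cyp4f15 with 28.6 ± 3.84, Cyp4a32 with 19.8 ± 4.79, Cyp4f13 with 8.55 ± 1.02 and Cyp4a31 with 3.68 ± 1.72 CPM per kilobase. Neighbours whose livers overlapped were Cyp4a14 with Cyp4a10, Cyp4a10 with Cyp4v3, Cyp4f14 with Cyp4f15, and Cyp4f15 with Cyp4a32. In HKO livers the order began with Cyp4v3 at 227 ± 35.6 CPM per kilobase, above every other member in each liver. Cyp4a10 at 89.5 ± 51.9, Cyp4f14 at 79.2 ± 16.8, Cyp4a14 at 60.9 ± 44.5 and Cyp4f15 at 37.9 ± 1.23 followed, each overlapping its neighbour. The last were Cyp4a32 at 11.8 ± 3.66, Cyp4f13 at 11.1 ± 0.409 and Cyp4a31 at 1.19 ± 0.77 CPM per kilobase, of which Cyp4a32 and Cyp4f13 overlapped.

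Cyp4a14, a lauric acid hydroxylase with the highest mean level per kilobase in WT livers, had the largest difference of the members. Its CPM was 980.3, 1207, 861 and 422 in WT replicates 1 to 4 and 130.6, 249, 3.78 and 225 in HKO replicates 1 to 4. Every HKO liver lay below every WT liver, but WT replicate 4 was well under the other WT livers, and HKO replicate 3 held only 67 counts of the gene. The means were 867 ± 329.9 CPM in WT against 152 ± 111 CPM in HKO livers (SD, n = 4 each), a 5.71-fold lower mean. The fitted log2FC was -2.51 with a standard error (SE) of 1.08, and the adjusted p of 0.271 with edgeR did not pass the threshold. Without HKO replicate 3 the fitted difference of Cyp4a14 was -2.11 with an adjusted p of 0.0613 with edgeR. The spread of Cyp4a14 among HKO livers, an SD of 2.85 in log2 CPM, exceeded that of 99.9% of tested genes, and among WT livers, with an SD of 0.66, it exceeded that of 95.5%.

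Cyp4a10, the lauric acid omega-hydroxylase of the same cluster, followed a like pattern. In WT replicates 1 to 4 it stood at 627, 745, 553 and 427 CPM, and in HKO replicates 1 to 4 at 194, 245, 33.9 and 282 CPM. Again the genotypes did not overlap, WT replicate 4 was the lowest WT liver and HKO replicate 3 the lowest of all. The mean was 588 ± 134 CPM in WT against 189 ± 109 CPM in HKO livers (SD, n = 4 each), 3.11-fold lower, with a log2FC of -1.64 (SE 0.61, adjusted p = 0.21 with edgeR). This call turned on HKO replicate 3. Without that liver the difference of Cyp4a10 was smaller, -1.29, and passed the threshold with an adjusted p of 0.012 with edgeR.

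Cyp4a31 and Cyp4a32, close copies of Cyp4a10 in the same cluster, were also lower on average in HKO livers. Cyp4a31 was measured at 14.7, 10.3, 7.05 and 4.80 CPM in the WT livers and at 2.31, 2.66, 1.26 and 5.75 CPM in the HKO livers, in the order of the replicate numbers. HKO replicate 4 lay above WT replicate 4, so the genotypes overlapped in that pair of livers. The means of Cyp4a31 were 9.23 ± 4.31 and 3.00 ± 1.93 CPM (SD, n = 4 each), and its log2FC of -1.65 (SE 0.51) had an adjusted p of 0.121 with edgeR. Cyp4a32 was at 28.8, 41.0, 25.2 and 26.1 CPM in WT and at 14.3, 15.1, 16.3 and 26.3 CPM in HKO livers. HKO replicate 4 was at the level of WT replicates 3 and 4, and the other HKO livers lay below all WT livers. Its means were 30.3 ± 7.33 and 17.98 ± 5.60 CPM (SD, n = 4 each), a log2FC of -0.75 (SE 0.23, adjusted p = 0.1 with edgeR). Without HKO replicate 4 both passed, with adjusted p of 0.0389 for Cyp4a31 and 0.0166 for Cyp4a32 from edgeR. DESeq2 called both with all 8 livers, with adjusted p of 0.00401 and 0.0148.

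Since reads of the close copies were divided by estimation, the rows of the subfamily were also added up. The sum of the 4A members was 1651, 2003, 1446 and 879 CPM in WT and 341, 512, 55.2 and 539 CPM in HKO livers, a log2FC of -2.05 without a test. Every HKO liver was below every WT liver in this sum, which does not depend on how reads were split among the members. Most of it was Cyp4a14 and Cyp4a10, with means of 867 and 588 of 1495 CPM in WT livers. Neither of these overlapped on its own, so the separation of the sum adds no further evidence. It also says nothing about Cyp4a31 or Cyp4a32 alone. The table lists a pair of further 4A genes, Cyp4a12a and Cyp4a12b, arachidonic acid omega-hydroxylases that are 98.5% identical to each other in coding sequence. Cyp4a12a was at 133 ± 77.1 CPM in WT against 169.6 ± 72.5 CPM in HKO livers (log2FC 0.35, adjusted p = 0.828 with edgeR), and Cyp4a12b at 14.7 ± 8.44 and 63.9 ± 36.7 CPM (SD, n = 4 each). Cyp4a12b was higher in each HKO liver, with a log2FC of 2.13. Its adjusted p was 0.124 with edgeR, 0.00926 from DESeq2 and 0.0381 from limma-voom. The study shows Cyp4a12b in a heat map of genes selected on these same livers, so its direction here is not independent evidence. Reads of Cyp4a12b cannot be separated from those of Cyp4a12a over 41.3% of its stretches of 75 bases, or 52.5% of those of 45 bases. Cyp4a12a overlapped between the genotypes, at 25.7 to 209 CPM in WT and 99.98 to 263 CPM in HKO livers. The CPM of the pair was not summed on its own, and the separation of Cyp4a12b depends on how reads were divided. With this pair included, the sum of the 4A rows had a log2FC of -1.46.

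The makeup of the 4A transcripts was also described in each liver. Per kilobase, Cyp4a12a and Cyp4a12b made up 11.6%, 7.29%, 2.09% and 14.99% of the 4A signal in WT replicates 1 to 4 and 42.8%, 19.97%, 84.0% and 20.9% in HKO replicates 1 to 4. Cyp4a10 and Cyp4a14 together gave between 80.9% and 94.9% in WT livers and between 9.81% and 76.2% in HKO livers. The shares did not overlap between the genotypes, and they are given as a description with no test. Both are parts of the same total and nearly mirror each other, so they count as 1 observation. Cyp4a10 and Cyp4a14 were each lower in every HKO liver than in any WT liver, so the makeup is not independent of that difference. HKO replicate 3 stood apart in both, with Cyp4a14 at 0.843% of its 4A signal.

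**Figure D2:**
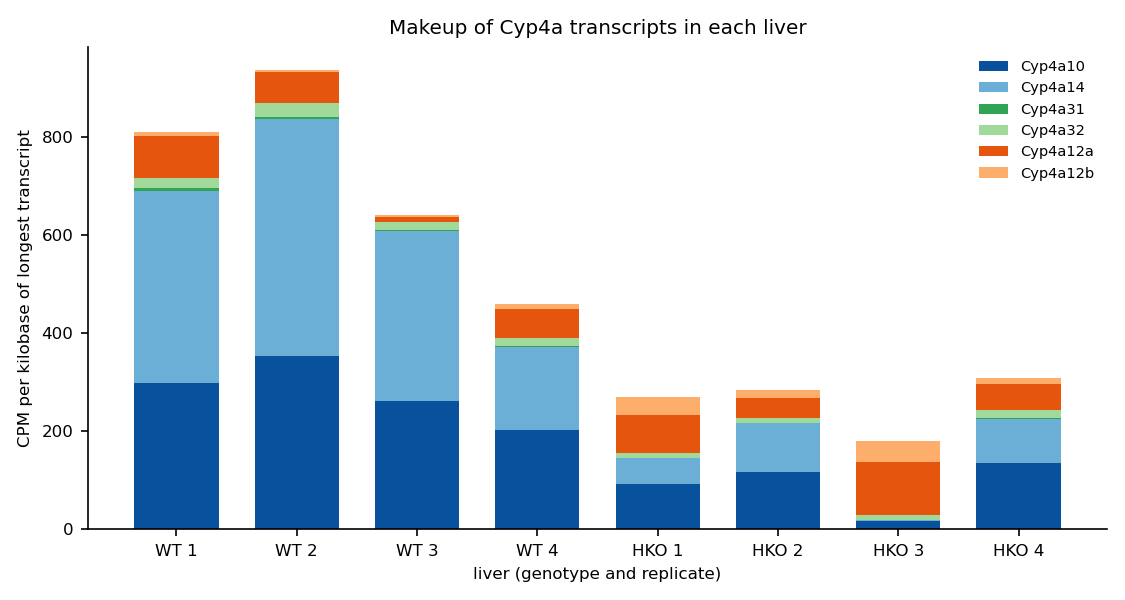
Stacked bars of the 6 listed Cyp4a genes in CPM per kilobase of the longest transcript (vertical axis from 0) in each of the 8 livers. The sum lies between 459 and 936 in WT and between 179.3 and 308 in HKO livers, and the orange part for Cyp4a12a and Cyp4a12b is 84.0% of the bar in HKO replicate 3.

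Within a liver, the ratio of Cyp4a14 to Cyp4a10 does not depend on scaling between libraries. The log2 ratio of their counts was 0.64, 0.70, 0.64 and -0.02 in WT and -0.57, 0.02, -3.16 and -0.33 in HKO livers. WT replicate 4 lay within the HKO range, and HKO replicate 3 was far below the rest. The means were 0.49 ± 0.34 and -1.01 ± 1.45 (SD, n = 4 each), a difference of -1.50 in log2 that did not pass a two-sided exact permutation test (p = 0.0571). Without HKO replicate 3 the difference of this ratio was -0.78.

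Cyp4f14, the main leukotriene B4 omega-hydroxylase of mouse liver and kidney, had the largest rise among the members. It was measured at 81.4, 65.5, 79.1 and 94.97 CPM in WT replicates 1 to 4 and at 201, 189, 120.4 and 193 CPM in HKO replicates 1 to 4. All HKO livers exceeded all WT livers, and HKO replicate 3 lay between the other HKO livers and the WT livers. The mean rose from 80.3 ± 12.1 to 176 ± 37.4 CPM (SD, n = 4 each), 2.19-fold, with a log2FC of 1.13 (SE 0.17, adjusted p = 0.00655 with edgeR). The call of Cyp4f14 held whichever of the 8 livers was left out, with log2FC values from 1.05 to 1.28. The study includes this gene in a heat map of genes selected on these same livers, so its direction here is not independent evidence.

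Cyp4f15, which lies apart from Cyp4f14 and Cyp4f13 on chromosome 17 and hydroxylates leukotriene B4 and related fatty acids, rose by less and with little spread. It stood at 51.3, 59.7, 69.5 and 67.6 CPM in WT and at 84.96, 83.2, 78.7 and 81.6 CPM in HKO livers. No WT liver reached the lowest HKO liver, and the HKO livers were closer to each other than the WT livers were. The mean of Cyp4f15 rose from 61.99 ± 8.32 to 82.1 ± 2.66 CPM (SD, n = 4 each), a log2FC of 0.40 (SE 0.10, adjusted p = 0.0357 with edgeR). The SD of its log2 CPM among HKO livers, 0.047, was smaller than that of all but 2.40% of tested genes. The call was lost in 6 of the 8 fits without a liver, those without any 1 of the HKO replicates and those without WT replicate 1 or 2, with adjusted p up to 0.119 from edgeR. It was also lost with scaling by total count (log2FC 0.31, adjusted p = 0.142 with edgeR). Over all 8 fits without a liver the log2FC of Cyp4f15 stayed between 0.33 and 0.46.

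Cyp4f13, the neighbour of Cyp4f14, was at 16.9, 15.01, 12.6 and 15.4 CPM in WT and at 19.8, 18.5, 20.003 and 19.8 CPM in HKO livers. The genotypes did not overlap, and the gap between WT replicate 1 and HKO replicate 2 was small. Its means were 14.98 ± 1.78 and 19.5 ± 0.716 CPM (SD, n = 4 each), and the log2FC of 0.38 (SE 0.11) had an adjusted p of 0.0621 with edgeR and of 0.0397 from DESeq2. The SD of its log2 CPM among HKO livers, 0.054, was also small, with 3.53% of tested genes below it. Added together, the 4F members stood at 149.5, 140.2, 161 and 178 CPM in WT and at 306, 291, 219 and 294 CPM in HKO livers, a log2FC of 0.82. With the rows of all 10 listed Cyp4f genes the log2FC was 0.78, so the other rows added little.

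Cyp4v3, the only member on chromosome 8, was among the abundant members. It was at 585, 631, 737 and 794 CPM in WT and at 786, 789, 1068 and 822 CPM in HKO livers. WT replicate 4 lay above HKO replicates 1 and 2, so the groups overlapped, and HKO replicate 3 was the highest liver. The means were 687 ± 95.7 and 866 ± 135 CPM (SD, n = 4 each), with a log2FC of 0.34 (SE 0.13, adjusted p = 0.17 with edgeR). Without HKO replicate 3 the value for Cyp4v3 was 0.22 with an adjusted p of 0.354 with edgeR.

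**Figure D3:**
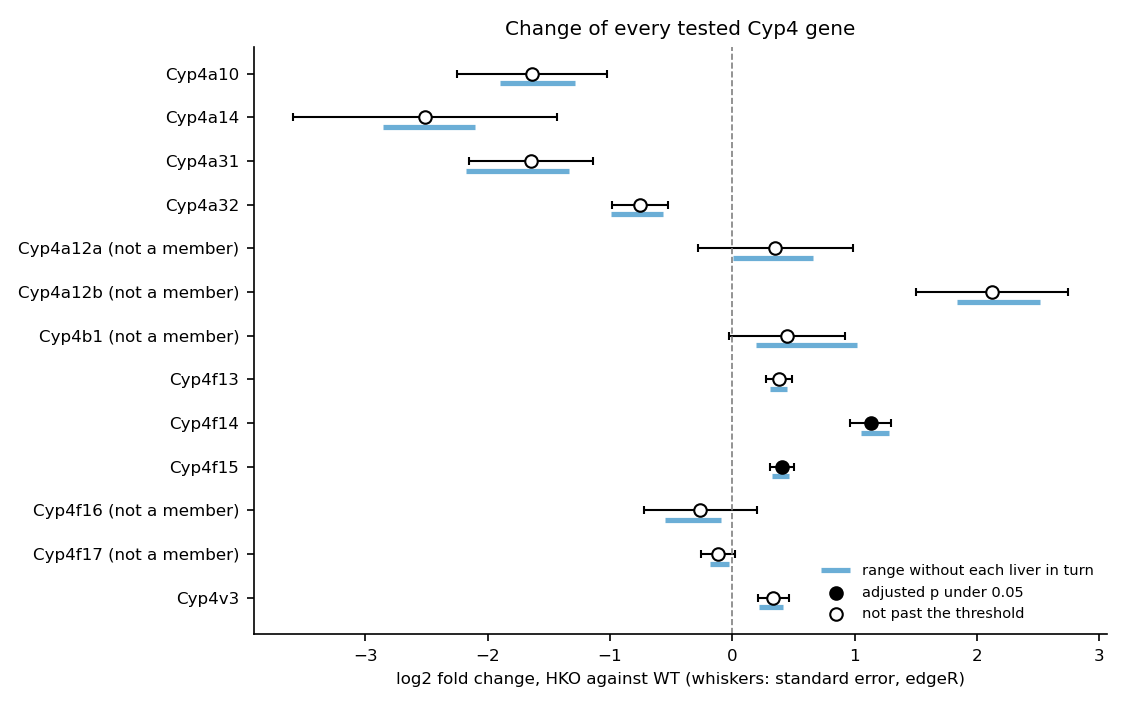
Log2 fold change of HKO against WT for the 13 tested Cyp4 genes (points, filled where the adjusted p is under 0.05, with the standard error as whiskers) and its range when each liver is left out in turn (blue bars). Cyp4f14 at 1.13 and Cyp4f15 at 0.40 are filled, and the widest error belongs to Cyp4a14 at -2.51 ± 1.08.

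Cyp4a14 was lower and Cyp4f14 higher in every HKO liver than in any WT liver, so their ratio had to separate the genotypes and is given as a description, with no test. The log2 ratio of Cyp4f14 to Cyp4a14 counts was -3.59, -4.20, -3.44 and -2.15 in WT and 0.62, -0.40, 4.98 and -0.22 in HKO livers. The genotype means differed by 4.59 in log2, and by 3.35 without HKO replicate 3.

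Of the 12 other Cyp4 genes in the table, 5 were tested and 0 were called by edgeR, against 5.03% of all tested genes, 1 of the 5 (Cyp4a12b) having an unadjusted p under 0.05 and being called by DESeq2 and limma-voom. Cyp4b1, which acts on short chains and on xenobiotics, was at 6.43 ± 4.13 CPM in WT against 8.89 ± 3.82 CPM in HKO livers (SD, n = 4 each). Cyp4f16 was at 0.778 ± 0.327 and 0.641 ± 0.297 CPM and Cyp4f17 at 8.54 ± 0.533 and 7.84 ± 1.24 CPM, with log2FC values of -0.26 and -0.12. Cyp4b1-ps2, Cyp4f37, Cyp4f40, Cyp4f41-ps and Cyp4x1 did not exceed 3 counts in any liver, and Cyp4f18 and Cyp4f39 did not exceed 6, so no difference was detectable for them at this depth.

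miR-33-5p is printed from RefSeq on GRCm38.p6, where it lies at chr15:82198127-82198147 on the plus strand within Srebf2, with its seed (bases 2 to 8) in capitals. It is shown because the genotypes differ, by their labels, in this miRNA.
mmu-miR-33-5p: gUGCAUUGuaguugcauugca

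Transcripts were searched for the match to bases 2 to 8 (CAATGCA) and for the match to bases 2 to 7 followed by A (AATGCAA) on the coding strand of the longest 3'UTR that the annotation gives a gene. Cyp4a32 has 0 bases of 3'UTR in this annotation. The others have between 89 bases (Cyp4f13) and 1992 bases (Cyp4v3), and 0 of these held a match. Of 11536 tested genes with a 3'UTR of at least 50 bases, 16.2% held at least 1. The median 3'UTR of those genes was 1214 bases, longer than that of every member except Cyp4v3, so this is not a like comparison. The absence of these letters says nothing about other kinds of site.

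Promoter sequences, from 250 bases before to 50 after a transcription start, were taken from RefSeq on GRCm38.p6 for Cyp4a32, Cyp4f13, Cyp4f14, Cyp4f15 and Cyp4v3, in 8 entries for these 5 genes, of which 4 are starts of Cyp4f14. Cyp4a10, Cyp4a14 and Cyp4a31 were not searched. The direct repeat read by PPAR-alpha with RXR, AGGTCA followed by any base and a second AGGTCA, was searched on both strands. With up to 2 mismatches it was found in 0 of the 8 entries, against 3.86% of 32851 promoters of the same length. With up to 3 mismatches there was 1 match in Cyp4a32 and 2 in Cyp4v3, and 24.6% of all promoters held at least 1. The 250 bases before the start are shown for the called members Cyp4f14 and Cyp4f15, with capitals for words of at least 10 bases that both share. Of the 4 starts listed for Cyp4f14, the one nearest to the deposited start of the gene was used.
Cyp4f14 (chr17:32917357-32917606, minus strand): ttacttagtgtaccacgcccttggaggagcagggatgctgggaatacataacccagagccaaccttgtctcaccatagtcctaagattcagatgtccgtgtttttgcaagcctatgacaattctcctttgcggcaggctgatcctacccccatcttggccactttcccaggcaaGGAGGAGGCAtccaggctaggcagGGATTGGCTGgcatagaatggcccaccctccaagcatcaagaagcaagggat
Cyp4f15 (chr17:32685409-32685658, plus strand): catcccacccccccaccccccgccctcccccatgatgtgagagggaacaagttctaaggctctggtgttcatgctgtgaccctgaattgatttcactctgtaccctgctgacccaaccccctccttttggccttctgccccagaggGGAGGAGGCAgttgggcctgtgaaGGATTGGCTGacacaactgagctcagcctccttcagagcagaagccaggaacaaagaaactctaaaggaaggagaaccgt

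The word GGAGGAGGCA begins 76 bases before the start in Cyp4f14 and 104 before it in Cyp4f15, and GGATTGGCTG begins 52 and 80 bases before it. On either strand these words occur in 0.49% and 0.438% of all promoters. A word of 12 bases, CTGTTCCTGAGA, follows the start by 38 bases in Cyp4f14 and by 10 in Cyp4f15, and 0.0274% of promoters hold it. That share is 9 entries of the promoter table, 5 of which belong to Cyp4f14 (4 start sites) and Cyp4f15 themselves and the others to 4 other genes. Of the entries with each of the words of 10 bases, 161 and 144, these 2 genes account for 4. None of the 3 words is in the promoter of Cyp4f13. Such shared words are a description of the sequences, and whether any factor binds them was not tested.

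Of 5 electron donors of microsomal P450 enzymes, 0 were called by edgeR, DESeq2 or limma-voom, where edgeR called 5.03% and DESeq2 7.18% of all genes, so a count of 0 among 5 is near the background. Of the 5, 2 had an unadjusted p under 0.05 with edgeR, both lower, against 19.8% of all tested genes in either direction. Por, the reductase that passes electrons from NADPH, was at 142 ± 29.9 CPM in WT against 193 ± 85.5 CPM in HKO livers (adjusted p = 0.537 with edgeR, SD with n = 4 each). Cyb5a, cytochrome b5, was at 1065 ± 163 and 1087 ± 129 CPM, and Pgrmc1, a heme-binding partner, at 2271 ± 314 and 1902 ± 171 CPM.

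Part of the enzymes that act after omega-hydroxylation fell. In a list of dehydrogenases, acyl-CoA enzymes and peroxisomal proteins, 29 genes were tested, of which 11 fell and 0 rose. That is a called share of 37.9%, where 5.03% of all tested genes were called and 3.37% as lower. The median log2FC was -0.42 against 0.01 over all genes. Acaa1b, a peroxisomal thiolase, was at 712, 792, 563 and 665 CPM in WT and at 216, 233, 215 and 247 CPM in HKO livers, without overlap. Its log2FC was -1.59 (adjusted p = 9.42e-05 with edgeR). Aldh3a2, the fatty aldehyde dehydrogenase that oxidises omega-aldehydes, fell from 921 ± 107 to 419 ± 77.7 CPM (SD, n = 4 each, log2FC -1.14, adjusted p = 0.00154 with edgeR). Ehhadh, a bifunctional enzyme of peroxisomal beta-oxidation, had a log2FC of -0.78 (adjusted p = 0.00665 with edgeR). Aldh1a1, a cytosolic aldehyde dehydrogenase, had a log2FC of -0.57 and was not called without WT replicate 2 or HKO replicate 4. Without WT replicate 2 the list held 7 called genes.

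Many PPAR-alpha target genes outside that list fell as well. Of 34 tested, 20 fell and 0 rose, a called share of 58.8% against the same 3.37% of all tested genes called as lower. This list too was chosen with earlier results of these data known. The median log2FC of the list was -0.66, and without WT replicate 2 the number called was 11. Vnn1, a pantetheinase, fell from 241 ± 32.3 to 59.4 ± 12.5 CPM (SD, n = 4 each, log2FC -2.02, adjusted p = 0.000259 with edgeR). Acot2, a mitochondrial acyl-CoA thioesterase, had a log2FC of -2.20, Pdk4, the kinase that restrains pyruvate oxidation, of -2.15, and Fgf21, a fasting hormone, of -2.30. Acot2 was not called without WT replicate 1 or HKO replicate 4, Pdk4 not without HKO replicate 4, and Fgf21, which had at most 3 counts in HKO replicates 2 and 3, not without WT replicate 2. Cd36, a fatty acid transporter and also a known target of PPAR-gamma, had a log2FC of -2.32 and was called in all 8 fits without a liver. Cidec, a lipid droplet protein and likewise a known target of PPAR-gamma, was at 21.4 to 54.7 CPM in WT livers and at 3.24, 1.16, 0.507 and 0.17 CPM in HKO livers, the last of these under the 0.255 CPM that 3 counts are worth in HKO replicate 4. Its log2FC of -4.60 ranged from -5.66 to -4.19 when each liver was left out, and it was called in 4 of those 8 fits, not without WT replicate 1, 2 or 3 or HKO replicate 2. The log2FC values of Cyp4a10 (-1.64) and Cyp4a14 (-2.51) lay below the median of this list.

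Among 20 receptors and coregulators, 2 rose and 2 fell, that is 4 of 20 called, where 5.03% of all tested genes were called. Ppara fell from 671 ± 9.52 to 536 ± 35.1 CPM (SD, n = 4 each, log2FC -0.33, adjusted p = 0.0358 with edgeR), without overlap, and was called in 1 of the 8 fits without a liver. Its partner receptor Rxra was at 260.1 ± 28.7 CPM in WT against 302 ± 7.02 CPM in HKO livers (adjusted p = 0.193 with edgeR). Pparg fell with a log2FC of -1.25, from 19.6 ± 2.47 to 8.20 ± 2.63 CPM. Hnf4a, a receptor that maintains hepatocyte identity, rose by 0.36 on the log2 scale and was likewise called in 1 of the 8 fits without a liver. Scaling by total count moved the median log2FC of all genes by -0.09. In the leukotriene B4 and arachidonate list, 7 genes were tested and 1 fell, Ephx1, the microsomal epoxide hydrolase, with a log2FC of -0.97 (adjusted p = 0.00126 with edgeR), while Ephx2, the soluble hydrolase, stood at 964 ± 82.5 and 922 ± 98.2 CPM. Alox5, which starts leukotriene synthesis, did not exceed 3 counts in any liver.

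**Figure D4:**
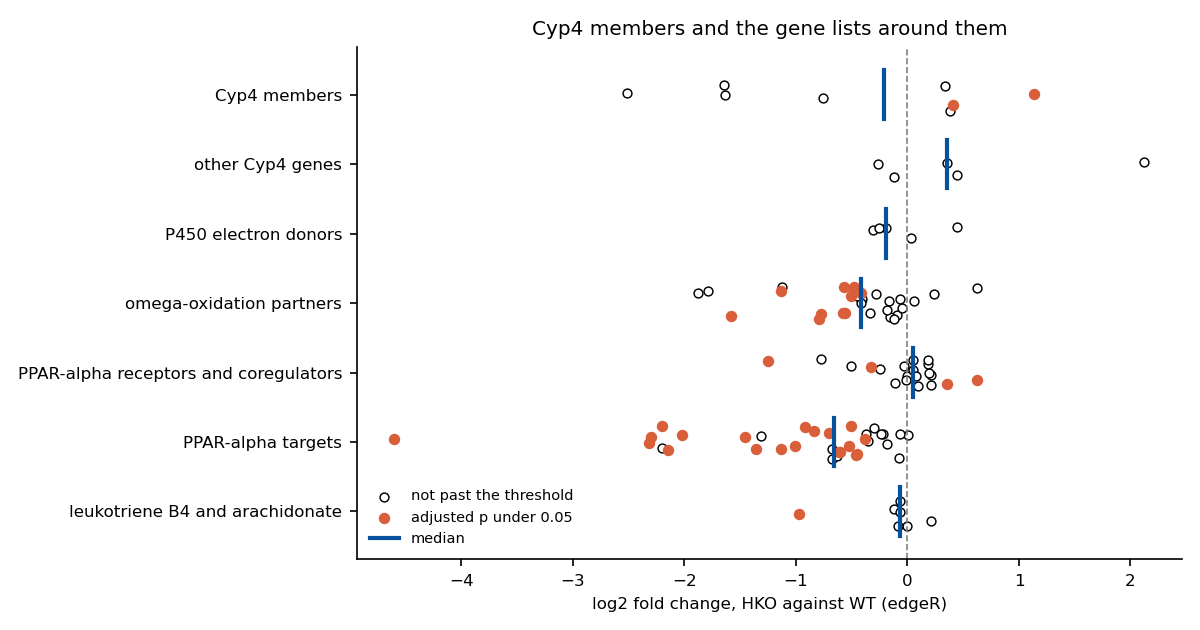
Log2 fold changes of HKO against WT for the members and 6 lists (1 point per tested gene, orange where the adjusted p is under 0.05, blue bar at the median). The members split into a lower and a higher group, while the omega-oxidation partners with a median of -0.42 and the PPAR-alpha targets with a median of -0.66 lie mostly to the left.

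Markers of liver cell types moved in part with genotype. Of 51 tested markers 4 rose (Hnf4a, Cps1, Ass1 and Cyp1a2) and 3 fell (Col1a1, Col3a1 and Hsd17b13), a called share of 13.7% against 5.03% of all tested genes. Ass1 was called in 2 of the 8 fits without a liver. Among the hepatocyte markers 3 of 9 rose, and their summed level was 85909.8 to 119813 CPM in WT and 81862 to 128675 CPM in HKO livers. Among the 8 stellate cell markers 2 fell, and their sum was 372 to 532 CPM in WT and 307 to 414 CPM in HKO livers. The pericentral hepatocyte markers, 1 of 7 called, summed to 12584 to 14278 CPM in WT and to 16036 to 18076 CPM in HKO livers. Most of that sum was Cyp2e1, which was named after its values were seen, with means of 10131 and 12801 CPM, and which had an adjusted p of 0.1 with edgeR and of 0.00102 with DESeq2. For Kupffer cells and macrophages 0 of 8 markers were called, with 0 at an unadjusted p under 0.05 and 0 called by DESeq2 or limma-voom. The same held for endothelial cells (6 markers tested), cholangiocytes (3) and neutrophils (2), while the only adipocyte marker tested had an unadjusted p under 0.05 and was not called by any tool. The 5 cholangiocyte markers, untested ones included, summed to 40.6 to 50.8 CPM in WT and 30.8 to 107.8 CPM in HKO livers, and HKO replicate 2 stood apart, with Krt19 at 16.9 CPM and Epcam at 16.5 CPM, where the other 7 livers had at most 1.07 CPM of the first and 1.02 CPM of the second. These genes were chosen after their values were seen. Among the periportal markers 1 of 7 fell, and of the T, B and NK cell markers 0 had enough counts to be tested. The part of these markers in the differences of the Cyp4 genes was not tested.

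The genes whose pattern over the 8 livers was most like a member's were found among 11868 genes outside the family by the mean absolute difference of log2 CPM deviations from the gene's own mean. For Cyp4a10 these were Slc22a26 with 0.19, Cyp2c38 with 0.21 and Abcd2 with 0.22, where the median gene had 1.02. Cyp4a14 was nearest to Acot3 with 0.75, Abcd2 with 0.77 and Cyp2b9 with 0.87, against a median of 1.77. Within the family Cyp4a10 and Cyp4a14 differed by 0.81 from each other. Around Cyp4f14 stood Ass1 with 0.16, Cyp2c50 with 0.17 and Tat with 0.18, against a median of 0.58, and Cyp4f15 was at 0.38 from it. HKO replicate 3 deviated by -3.09 for Cyp4a10 and by -5.96 for Cyp4a14. In that liver Slc22a26, Cyp2c38, Abcd2, Acot3 and Cyp2b9 deviated by -2.71 to -3.44. All of these genes were chosen for their likeness, so no test is given.

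**Figure D5:**
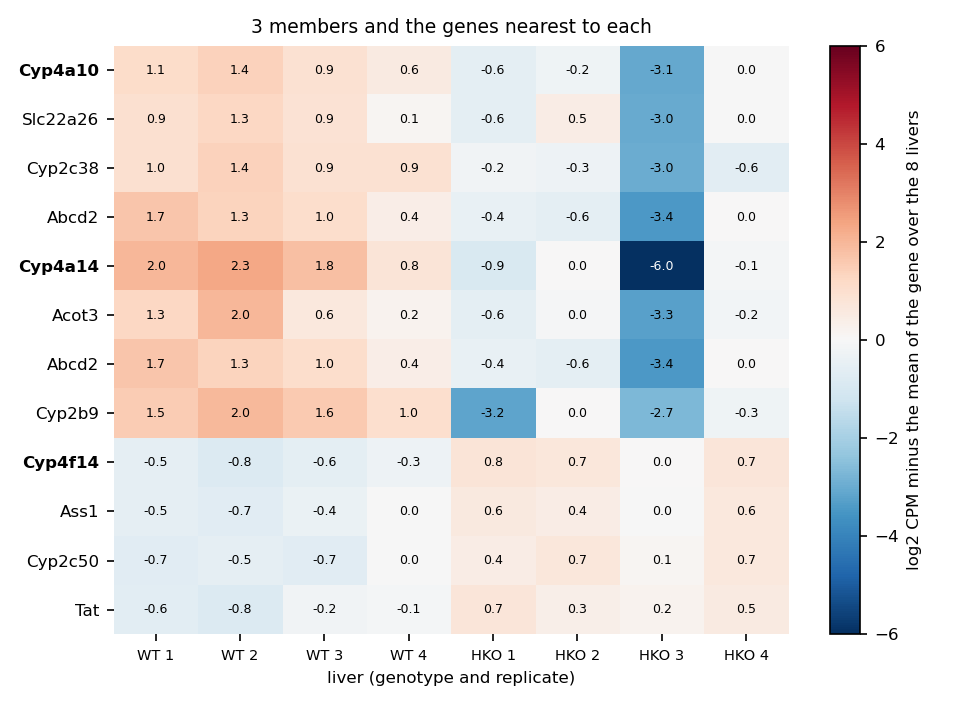
Deviation of log2 CPM from the mean of each gene over the 8 livers (colour and printed value, red above and blue below the mean) for Cyp4a10, Cyp4a14 and Cyp4f14 (bold) with the 3 genes nearest to each under it. HKO replicate 3 is the lowest liver for Cyp4a10 and Cyp4a14, and for Cyp4f14 it is the HKO liver closest to the WT livers.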

How the data were processed

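Livers were perfused and frozen, and RNA depleted of rRNA was sequenced. The labels also name a small RNA kit and give both 45 cycles and 75 bp reads, so the library type and read length are uncertain. The authors deposited estimated counts per gene, not normalised, from the expectation-maximization method of Partek, with STAR and Partek named in the submitters' processing notes; versions and annotation are not given in the sources used here. Some deposited values are not whole numbers. The listed coordinates lie on GRCm38, and 0 columns were left unmapped.

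Estimated counts were rounded and fitted with edgeR 4.0.16 in R 4.3.3 (TMM scaling, default expression filter with a minimum count of 10, robust quasi-likelihood test, genotype as the only term), with Benjamini-Hochberg adjustment over the 12395 genes tested and a threshold of 0.05. Which test gave the study's own calls was not found in the text read. The p-values measure the spread between livers of different mice. The standard error of a log2 fold change was taken as its size over the root of the F statistic. CPM uses TMM-scaled totals, with a prior count of 2 where logs are taken. Ratios add 0.5 to each count, and an exact permutation test (two-sided, 70 allocations) compared the ratio of Cyp4a14 to Cyp4a10. The models were also run on simulated data, and the outcome is not reported here. Also tried were limma-voom (limma 3.58.1), DESeq2 1.42.0, other scalings and filters, the legacy quasi-likelihood method (chosen after seeing the data), a fold change above 1.5, summed rows of paralogs, the replicate number as a block and each liver left out.

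Named genes were the 8 members, every other listed Cyp4 gene, and from each list up to 6 called genes with the largest change (from lists with fewer than 2, the 2 most abundant genes), besides Ppara, Rxra and Por, and the 3 genes of at least 1 CPM nearest to Cyp4a10, Cyp4a14 and Cyp4f14. Markers are named where called. Some genes that this rule names are not reported here. The members and lists were chosen with earlier results of these data known. Sequences came from GENCODE M21 and RefSeq and were read with Biopython 1.88 in Python 3.11.15 (numpy 2.4.6, pandas 2.3.3, scipy 1.17.1); plots used matplotlib 3.10.9.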

Additional observations from a re-analysis of the deposited data

Results flagged for a closer look

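In 8 of 78 groups of 4 livers, the gap between the highest or lowest liver and its nearest neighbour, divided by the range of the group, was above Dixon's critical value for 4 values. By chance about 5% of groups, or 3.9, would hold such a liver. For Cyp4a32, HKO replicate 4 was at 26.3 CPM and the other HKO livers at 14.3 to 16.3 CPM. For Cyp4f13, HKO replicate 2 was at 18.5 CPM and the others at 19.8 to 20.003 CPM. For Cyp4f14, HKO replicate 3 was at 120.4 CPM and the others at 189 to 201 CPM, and for Cyp4v3 the same liver was at 1068 CPM and the others at 786 to 822 CPM. The log2 ratio of Cyp4a14 to Cyp4a10 was -0.017 in WT replicate 4 and 0.64 to 0.70 in the other WT livers. HKO replicate 3, the lowest liver for Cyp4a14 and for this ratio, did not pass the critical value for the CPM of Cyp4a14 or for the ratio. Cyp4a14 was examined in this way in CPM only. In log2 CPM that liver deviated from the mean of the gene by -5.96, and the other HKO livers by -0.90 to 0.03.

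Of the genes named beside the members, Cidec was at 54.7 CPM in WT replicate 2 and at 21.4 to 25.05 CPM in the other WT livers, and Pdk4 at 27.4 CPM in the same liver and at 10.8 to 12.1 CPM in the others. Hnf4a was at 471 CPM in WT replicate 3 and at 435 to 441 CPM in the others. Why these livers stood apart was not tested.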

How the results depend on the processing

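No member reversed its direction in 136 refits (17 for each of the 8 members), 121 of which kept the side of the threshold, 8 lost a call and 7 gained one; all 8 losses were of Cyp4f15. DESeq2 called 975 genes and 5 members, with Cyp4a31, Cyp4a32 and Cyp4f13 added, and 622 of its genes were among the 624. It called 1 other Cyp4 gene and 11 cell type markers. A fold change above 1.5 left 367 genes. Under total count scaling Cyp4f15 lost its call (adjusted p = 0.142) and Cyp4a32 gained one (adjusted p = 0.046, both from edgeR), and 740 genes were called. Leaving out each liver in turn gave 212 to 598 genes (lowest without WT replicate 2, and 272 without WT replicate 1 and 364 without HKO replicate 4), 1 to 3 members, 7 to 11 omega-oxidation partners and 11 to 20 PPAR-alpha targets. It gave a difference of 3.35 to 5.14 for the log2 ratio of Cyp4f14 to Cyp4a14. The replicate numbers belong to different mice, and same-numbered livers did not deviate together (correlations -0.062, 0.012, -0.085 and -0.148), so they share only a number. With the replicate number as a block 456 genes and 1 member, Cyp4f14 (adjusted p = 0.013), were called, and Cyp4f15 was not (adjusted p = 0.0817, both from edgeR). With 4 livers a genotype, the spread of the Cyp4a genes limits what can be called, and at 3 counts, 0.149 to 0.255 CPM, depth limits the rare Cyp4 genes.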
